A study of Mus musculus with 4 samples.

Results

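First-intron H3K36me3 peaks are the peaks of trimethylated lysine 36 of histone H3 whose centre the authors' annotation places in intron 1 of a transcript with at least 2 introns. They numbered 755 of 36820 peaks in the wild-type (WT) library and 3338 of 95750 peaks in the library from H2A.z1 conditional knockout (cKO) tissue. Chromatin came from the neural progenitors of C57BL/6 mouse forebrain at embryonic day 13, either WT or with a brain-specific deletion of H2A.z1, a variant of histone H2A. Each genotype was represented by 1 ChIP library and 1 input library, and crosslinking used 1% formaldehyde in all 4. The Cre driver, the number of pooled embryos and the cells that escaped deletion are not given in the sources used here, and the name of the cKO input carries more than 1 number. Each genotype thus had a lone ChIP library, so the genotypes were not tested against each other, no p-value appears, and differences are described as differences of 2 libraries. The 95% intervals are exact (Clopper-Pearson) and reflect counting alone, since peaks of 1 library share their source.

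H3K36me3 is deposited by SETD2, which rides on elongating RNA polymerase II, so the mark lies over the bodies of transcribed genes and builds up away from their start sites. The first intron follows the first exon and is the stretch where the promoter-linked marks of a gene give way to the marks of elongation. H2A.z itself sits in nucleosomes that flank start sites, close to the 5′ part of the gene examined here.

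Start-site windows show the starts of some host genes, and most first-intron peaks with a known start lay more than 2 kb from it. The windows below are the 250 bases before and 50 bases after a RefSeq transcription start, on GRCm38.p6 and on the strand of the gene, with every CG dinucleotide in capitals. Ssbp3 encodes a cofactor of LIM-domain transcription complexes and Vrk1 a chromatin kinase. Both have an upstream start whose window held no peak and a later one whose window met a first-intron peak, and are shown to set these windows side by side. The upstream window of Ssbp3 (chr4:106911220-106911519, + strand) held 50 CG dinucleotides and no peak of either library, and the downstream window (chr4:106922935-106923234), 11.7 kb further on, held 3 and lay wholly inside first-intron peaks of both libraries. The upstream window of Vrk1 (chr12:106010013-106010312, + strand) held 20 and no peak, and the next one (chr12:106025557-106025856), 15.5 kb further on, held 5 and overlapped a cKO first-intron peak by 203 of 300 bases, all before the start itself. The windows of starts 3 and 4 of Vrk1, 20.5 and 26.3 kb from the upstream one and not printed, held 3 and 6 CG. They met no peak of either library. Foxk2 (chr11:121259737-121260036, + strand), a forkhead transcription factor gene with 17 first-intron peaks in cKO, had 59 CG and no peak over its start. Fam83e (chr7:45720970-45721269, + strand) had 7 CG, and its start lay wholly under the widest first-intron peak of the cKO library, while a WT peak of another class overlapped the same window.
Ssbp3 upstream start: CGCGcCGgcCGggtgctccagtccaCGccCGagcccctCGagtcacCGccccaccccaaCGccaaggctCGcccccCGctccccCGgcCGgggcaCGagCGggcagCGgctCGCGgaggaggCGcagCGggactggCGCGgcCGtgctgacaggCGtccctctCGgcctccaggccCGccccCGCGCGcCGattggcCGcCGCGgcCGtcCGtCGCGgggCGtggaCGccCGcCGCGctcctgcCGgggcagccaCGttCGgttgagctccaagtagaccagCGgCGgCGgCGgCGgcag
Ssbp3 downstream start: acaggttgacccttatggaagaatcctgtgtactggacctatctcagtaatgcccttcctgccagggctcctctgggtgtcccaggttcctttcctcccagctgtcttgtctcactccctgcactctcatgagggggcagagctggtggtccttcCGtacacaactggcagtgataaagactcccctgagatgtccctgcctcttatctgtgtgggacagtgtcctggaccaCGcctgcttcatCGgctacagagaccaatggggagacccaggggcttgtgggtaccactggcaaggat
Vrk1 upstream start: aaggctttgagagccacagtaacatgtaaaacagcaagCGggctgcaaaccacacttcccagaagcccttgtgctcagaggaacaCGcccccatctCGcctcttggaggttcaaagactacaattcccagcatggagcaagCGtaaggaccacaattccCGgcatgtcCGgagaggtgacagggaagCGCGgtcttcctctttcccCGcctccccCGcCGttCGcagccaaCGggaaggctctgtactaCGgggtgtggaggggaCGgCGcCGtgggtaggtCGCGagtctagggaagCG
Vrk1 second start: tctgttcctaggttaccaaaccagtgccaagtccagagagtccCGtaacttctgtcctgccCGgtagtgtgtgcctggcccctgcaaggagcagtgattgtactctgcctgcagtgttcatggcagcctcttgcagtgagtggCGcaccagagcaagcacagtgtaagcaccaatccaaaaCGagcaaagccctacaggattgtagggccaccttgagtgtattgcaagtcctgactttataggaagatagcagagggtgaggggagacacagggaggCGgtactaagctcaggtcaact
Foxk2 start: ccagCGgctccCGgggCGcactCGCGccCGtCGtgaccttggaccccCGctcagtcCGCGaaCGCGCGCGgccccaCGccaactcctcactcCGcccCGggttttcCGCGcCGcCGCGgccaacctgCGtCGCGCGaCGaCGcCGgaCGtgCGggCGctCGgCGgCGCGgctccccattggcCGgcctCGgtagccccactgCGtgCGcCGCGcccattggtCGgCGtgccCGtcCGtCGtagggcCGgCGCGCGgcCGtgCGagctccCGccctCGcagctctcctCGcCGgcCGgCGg
Fam83e start: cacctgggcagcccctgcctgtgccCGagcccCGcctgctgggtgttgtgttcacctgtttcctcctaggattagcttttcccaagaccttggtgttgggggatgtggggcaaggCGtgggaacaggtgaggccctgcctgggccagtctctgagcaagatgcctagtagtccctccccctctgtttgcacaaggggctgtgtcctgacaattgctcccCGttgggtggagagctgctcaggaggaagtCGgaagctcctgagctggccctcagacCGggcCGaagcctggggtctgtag

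The motif counted was CG, which reads the same on both strands and cannot overlap itself. Over all 32851 RefSeq windows the median was 7 CG, and 43.5% of windows held 10 or more. The host genes of first-intron peaks had starts rich in CG, with a median of 24 per window in WT (552 windows, 85.9% with 10 or more) and 23 in cKO (1666 windows, 83.6%). Genes with peaks in other introns but not in the first had nearly the same values, with medians of 23 and 22. First-intron peaks overlapped few windows, 4 of the 32851 in WT, with a median of 7.5 CG, and 25 in cKO, with a median of 3. Windows overlapped by a peak of any class had low counts too, with a median of 7 in WT (111 windows) and 5 in cKO (413 windows). Several of those 25 belonged to start sites of predicted genes within a host gene, and the named ones were those of Ssbp3, Vrk1, Fam83e, Spaca4, Msh4, Ghrl, Plekhg1, Mss51, Tspan14 and Cfp.

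First-intron peaks were a small class in both libraries. They made up 2.05% of WT peaks (interval 1.9 to 2.2%) and 3.49% of cKO peaks (3.37 to 3.60%), and 4.12% and 5.61% of all intron peaks. In sequence they covered 228547 bp in WT and 1711726 bp in cKO, which was 1.72% and 2.48% of the sequence under peaks. The higher share in cKO went with the longer list. When the cKO list was cut to its 36820 peaks with the largest -log10 q, 765 first-intron peaks remained, 2.08% of that list and 3.66% of its intron peaks. Just outside the rule, 283 WT and 819 cKO peaks lay in the only intron of a transcript, with a median width of 258 and 399 bp, beside 238 bp (183 peaks) and 361 bp (625 peaks) for first-intron peaks of transcripts with 2 introns. The X chromosome carried 3 of the WT and 18 of the cKO peaks, which was 0.397% and 0.539%, against 0.375% and 1.197% of all peaks.

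Relative to an equal split over introns, the first intron held fewer peaks than any other position examined. If every intron peak were equally likely to fall in each intron of its transcript, 10.8% of the WT intron peaks and 11.1% of the cKO intron peaks of such transcripts would lie in the first one. The observed numbers were 0.387 times that reference in WT and 0.511 times in cKO. The second intron stood at 0.946 and 1.15 times, the next at 1.05 and 1.15, and the last at 1.28 and 1.17. Both libraries thus had a step between the first intron and the next one, and the first was the only position examined where the cKO ratio was below 1. In transcripts with 2 to 4 introns the first-intron ratio was 0.565 in WT and 0.611 in cKO. In those with 5 to 9 introns it was 0.290 and 0.466, and in those with 20 or more it was 0.320 and 0.411. The reference is arithmetic and takes no account of intron lengths, which were not analysed here.

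**Figure D1:**
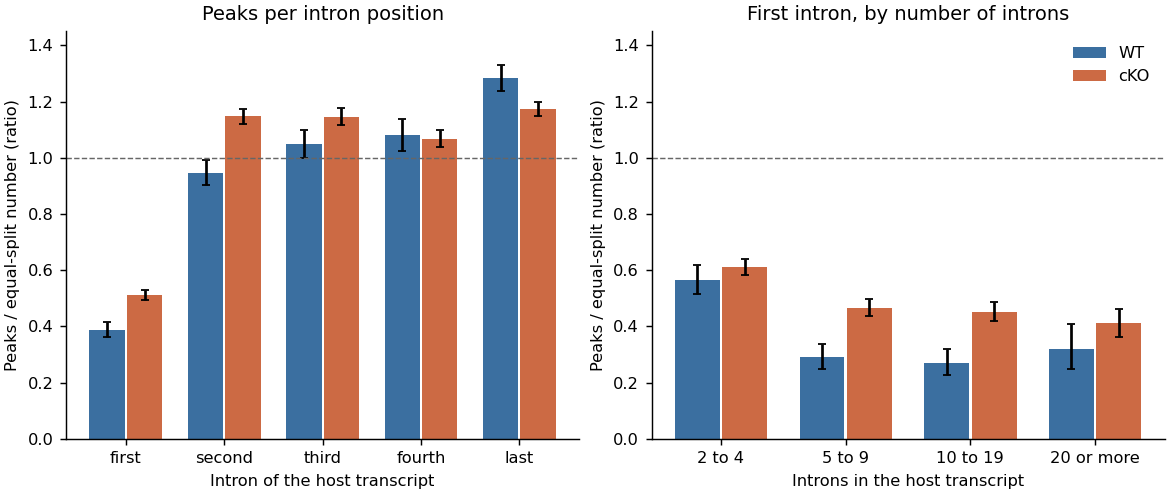
Left, number of peaks in successive introns and the last intron divided by the equal-split number (y axis, ratio) in WT and cKO; right, the same for the first intron by number of introns in the transcript. Bars are ratios, error lines are 95% Clopper-Pearson bounds divided by the same reference, and the dashed line marks 1; the first-intron bars stand at 0.387 and 0.511 while the others lie near or above 1.

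Many first-intron peaks were assigned to short transcripts and lay well inside their gene. The host transcripts had few introns, with a median of 4 introns in WT and 5 in cKO against 15 for internal-intron peaks of both libraries, and 52.6% of the WT and 44.7% of the cKO peaks lay in transcripts of 2 to 4 introns. For 378 of the 755 WT peaks (50.1%) and 1519 of the 3338 cKO peaks (45.5%), another transcript with more introns was named for the same gene elsewhere in the lists. A first intron of a short transcript can therefore be an interior stretch of the gene. RefSeq gave a strand and start for 568 WT and 2612 cKO peaks. Their summits lay at a median of 38.7% of the gene length from the 5′ end in WT and 28.7% in cKO, against 60.7% and 58.9% for internal introns and 84.7% and 82.7% for last introns. Yet 35.4% of the WT and 27.2% of the cKO first-intron peaks lay beyond the midpoint of the gene.

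**Figure D2:**
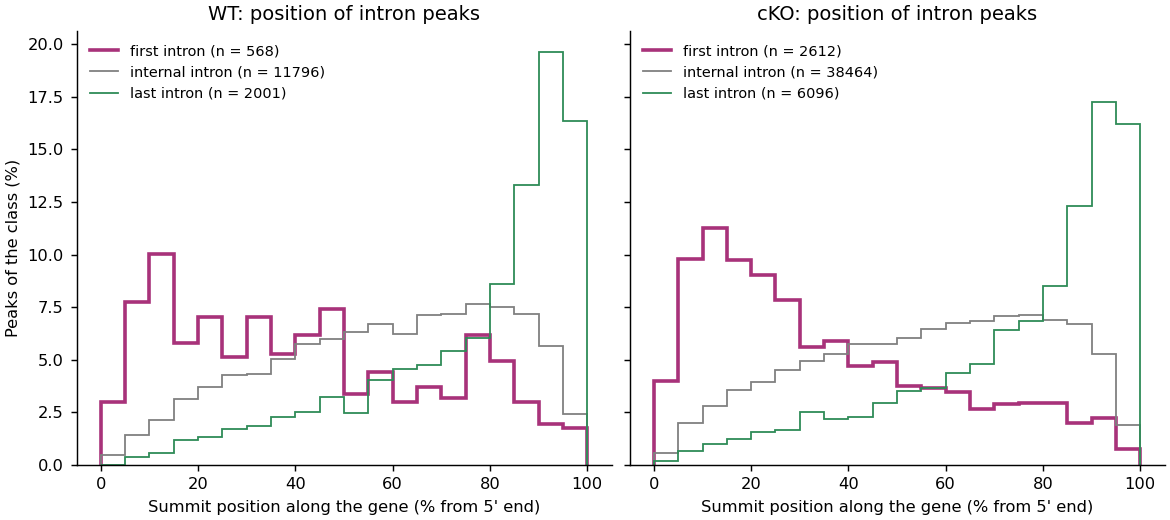
Distribution of summit positions along the gene (x axis, % of gene length from the 5′ end, in steps of 5) for peaks in first, internal and last introns of WT and cKO (y axis, % of the peaks of the class). First-intron peaks are spread over the gene with medians of 38.7% in WT and 28.7% in cKO, while last-intron peaks gather near the 3′ end.

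Few first-intron peaks lay close to a start, though their share there was above that of internal-intron peaks. Promoter peaks form a class of their own in the annotation and are not counted here. The median distance from summit to the nearest RefSeq start of the gene was 10.1 kb in WT (quartiles 5.57 and 20.6 kb) and 9.10 kb in cKO (4.73 and 20.2 kb), against 21.9 and 26.5 kb for internal introns. Only 23 of the 568 placed WT peaks (4.05%) and 86 of the 2612 cKO peaks (3.29%) lay within 2 kb of a start. Of internal-intron peaks, 0.678% in WT and 0.559% in cKO did. Within 5 kb the first-intron shares were 21.7% in WT and 27.5% in cKO, against 7.56% and 6.22% of internal-intron peaks. The lowest distance in WT was 0.02 kb, at the downstream start of Ssbp3 printed above.

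Coverage of the 5′ part of genes by peaks of any class gave the same picture from another side. Over 2415 protein-coding genes of at least 30 kb with peaks in both libraries, 0.135% of the sequence from 0 to 1 kb lay under WT peaks and 0.396% under cKO peaks. From 4 to 5 kb these shares were 1.52% and 9.44%, and from 29 to 30 kb they were 4.47% and 23.9%. Coverage thus began within the first few kb in both libraries and was higher in cKO at each of these distances. In the 190 such genes with a first-intron peak in both libraries, WT coverage from 4 to 5 kb was 2.87% and cKO coverage 13.9%. In the 585 with one in cKO alone, it was 0.902% and 7.95%, and these genes were chosen by that difference. The 190 genes too were chosen by their first-intron peaks, which count toward this coverage.

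**Figure D3:**
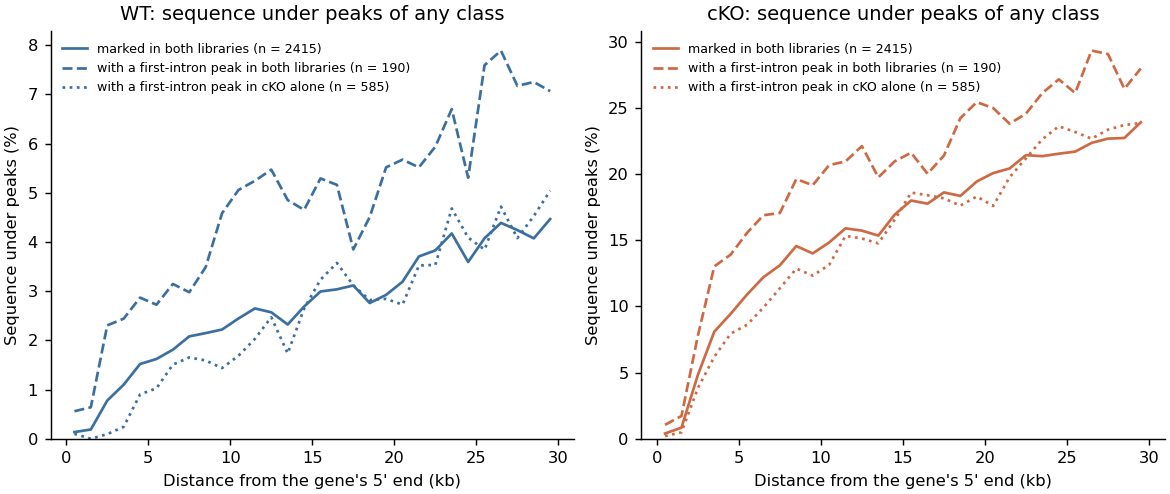
Share of sequence under peaks of any class (y axis, %, with different scales for WT and cKO) in 1 kb steps from the 5′ end (x axis, kb) for protein-coding genes of at least 30 kb, in 3 gene sets. All lines start near 0 in the first 2 steps and are higher further on, at 4.47% in WT and 23.9% in cKO for genes marked in both libraries.

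In genes with peaks in both libraries, the peak nearest the 5′ end lay closer to it in cKO. Over 5223 such genes the median distance was 9.30 kb in WT and 5.41 kb in cKO, and the cKO peak was the closer one in 78.5% of genes. In the 324 of them with a first-intron peak in both libraries the medians were 8.19 and 5.35 kb, and in the 4022 with none in either they were 8.27 and 5.30 kb. The order moved with the cut of the cKO list, which sets both the number of peaks and the lowest -log10 q kept. With the cKO list cut to as many peaks as WT had, keeping the largest -log10 q, the cKO peak was closer in 54.4% of genes, and with the list cut to the sequence length of the WT peaks it was closer in 12.9%, which turned the direction. Among host genes with 2 or more placed peaks, the most 5′ peak was a first-intron peak in 223 of 371 genes in WT (60.1%) and 866 of 1259 in cKO (68.8%). These genes were chosen for having a first-intron peak, which favours this outcome, and no share over other genes stands beside it.

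The peaks were narrower than those of other introns in the same library. The median width was 241 bp in WT (quartiles 186 and 353.5 bp), against 260 bp in internal and 267.5 bp in last introns. In cKO it was 340 bp (quartiles 243 and 549.75 bp), against 421 and 435 bp. Peaks over 1 kb made up 1.19% of WT first-intron peaks (9 peaks) and 8.90% of cKO ones (297 peaks), against 2.66% and 16.2% of internal-intron peaks. In the cKO list cut to the WT peak number the median was 659 bp, against 786 bp in internal introns, and in the list cut to the WT length it was 1910 bp (87 peaks) against 1848.5 bp. The narrowest peaks measured 152 bp in WT and 185 bp in cKO, which were also the fragment lengths modelled for the 2 libraries. The median fold enrichment, the tag number at the summit over the local input background, was 4.86 in WT and 4.70 in cKO, beside 5.00 and 5.17 for internal introns of the same library. These values are the authors' and are not compared between libraries.

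Overlap between the libraries was lower in first introns than in the other genic classes. A cKO partner, meaning a peak that shares at least 1 bp, existed for 631 of the 755 WT peaks (83.6%, interval 80.7 to 86.1%), against a background of 96.0% of all WT peaks and 95.8% of internal-intron peaks. A WT partner existed for 530 of the 3338 cKO peaks (15.9%, interval 14.7 to 17.2%), against 25.3% of all cKO peaks and 22.3% of internal-intron ones. Intergenic peaks stood lower still in WT, at 76.9% (73.9 to 79.8%), and in cKO their 17.1% (15.7 to 18.5%) had an interval that overlapped that of first introns. The WT share was lower in transcripts with more introns, from 87.7% at 2 to 4 introns through 85.5% at 5 to 9 and 78.0% at 10 to 19 to 64.6% (42 of 65 peaks) at 20 or more. It was below that of internal introns at every distance from the start examined, for example 85.0% against 96.4% from 2 to 5 kb. The intervals of the 2 classes overlapped only within 2 kb of the start, where 73.9% of 23 peaks stood against 92.5% of 80. By tertile of -log10 q within the WT list, first-intron peaks reached 79.4%, 87.0% and 86.7% from the lowest to the highest, where all peaks reached 94.4%, 96.2% and 97.7%. In cKO the values of the lower 2 tertiles were 5.30% and 14.1% against 5.43% and 15.1%, with overlapping intervals, and in the highest they were 48.4% against 57.0%. The lowest tertile held 335 of the 755 WT first-intron peaks and 13314 of all 36820 WT peaks. In cKO it held 1699 of 3338 and 34492 of 95750. First-intron peaks thus stood more often in that tertile. How far this enters the lower partner shares was not tested.

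The size of these shares, and partly their order, followed the lists and the rule. With the cKO list cut to the WT peak number, 57.4% of WT first-intron peaks had a partner against 81.2% of all WT peaks, and with the list cut to the WT length 19.6% against 30.7%. For the cKO peaks left in those lists the shares were 43.7% against 51.5%, and 93.1% (81 of 87 peaks) against 92.7%. Under a reciprocal overlap of 50% of both peaks the order turned in WT, with 21.3% of first-intron peaks against 15.5% of all WT peaks, and the cKO shares were 5.03% against 5.95%.

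Where a WT first-intron peak had a cKO partner, the partner was usually wider and usually of the same class. The 631 WT peaks had a median width of 245 bp and their cKO partners 941 bp, and the partner was the wider one in 600 cases. The partner was itself a first-intron peak for 501 of the 631 (79.4%). For the others it was a promoter peak (40), an internal-intron peak (29), an exon peak (26), a termination-site peak (21) or a last-intron peak (14). The class follows the centre of a peak, so a wide cKO peak over a narrow WT peak can carry another label. The 124 WT peaks without a partner had a median width of 209.5 bp and lay at a median of 23.4% of the gene, against 42.0% for those with one.

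The first-intron peaks fell in 544 genes in WT and 1642 in cKO, with 415 genes in both, 129 in WT alone and 1227 in cKO alone. The cKO list was the longer one (95750 against 36820 peaks). No such split over genes with peaks in other introns stands beside these counts, so they are not read as particular to first introns. In the cKO lists cut to the WT peak number and to the WT length, 580 and 77 genes remained. The full lists gave 11.4% of the 4765 genes with any intron peak in WT and 22.2% of 7407 in cKO. Most of the genes in cKO alone were also marked in WT, since 1012 of the 1214 that could be placed (83.4%) had a WT peak of some class over the gene. The converse held for 102 of the 129 genes in WT alone, and in 61 of them the WT first-intron sequence was at least partly under a cKO peak of another class. Nearly all host genes carried a peak of another genic class in the same library, 87.3% in WT and 96.7% in cKO. More than 1 first-intron peak was present in 119 genes in WT and 734 in cKO, with at most 8 and 17 in 1 gene. Joining the peaks of 1 first intron within 3 kb of each other left 604 domains in WT and 2046 in cKO, with a median width of 265 and 501 bp.

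The amount of first-intron peak sequence was compared over the 1771 genes with such a peak in either library. Of these, 1227 had one in cKO alone and 129 in WT alone, so their direction was fixed by the choice of genes. Of the 1771 genes, 458 (25.9%) had at least 1 kb more in cKO and 5 (0.282%) at least 1 kb less. In other introns, summed per gene, 69.8% and 0.829% of 7483 genes met the same rule, but that sum runs over more introns per gene and the shares are not compared. In the 415 genes with such peaks in both libraries, the WT median was 312 bp, the cKO median 1289 bp, and 393 genes had more in cKO. With the cKO list cut to the WT peak number, 195 genes had at least 1 kb more and 9 at least 1 kb less. With the list cut to the WT length the numbers were 46 and 24.

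**Figure D4:**
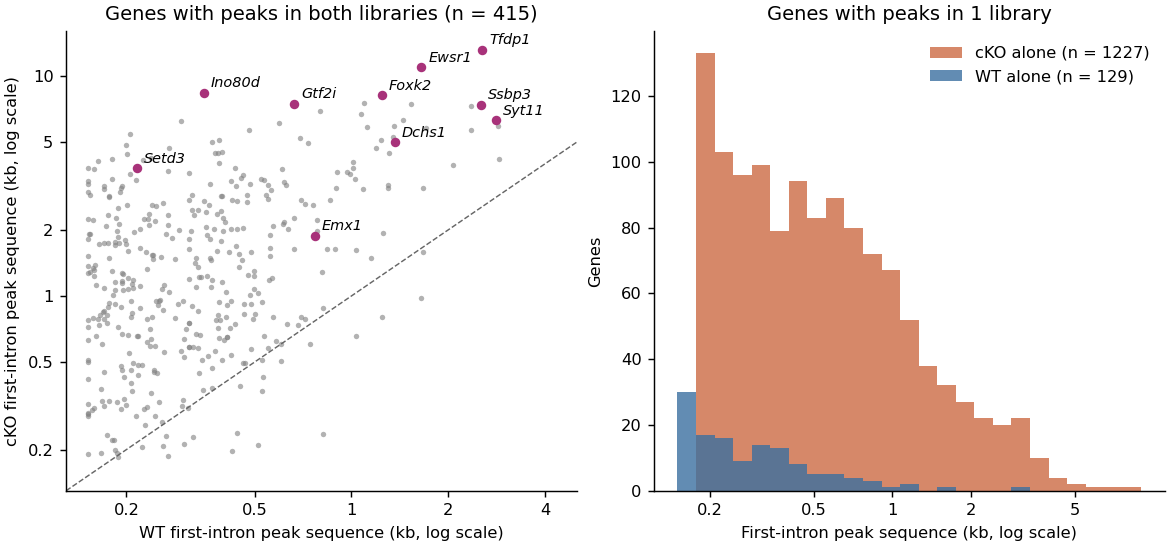
Left, summed width of first-intron peaks per gene in WT (x axis) and cKO (y axis), both in kb on log scales, for the 415 genes with peaks in both; the dashed line marks equal values and named genes are coloured. Right, the same sum for the 1227 genes with peaks in cKO alone and the 129 in WT alone; 393 of the 415 points on the left lie above the line.

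Tfdp1, which encodes the DP1 partner of the E2F cell cycle factors, had the most first-intron peak sequence of any named gene in cKO. In WT its first intron held 8 separate peaks of 193 to 826 bp, 2538 bp in all, between 5.15 and 15.8 kb from the nearest start. In cKO it held 5 peaks of 708 to 5543 bp, 13179 bp in all, the first of them 2.75 kb from the start. All 2538 bp of the WT sequence lay under cKO peaks, so the cKO peaks filled the gaps between the WT ones and reached further toward the start. Over the whole gene, 29.1% of the sequence lay under peaks in WT and 84.7% in cKO. Ewsr1, an RNA-binding protein gene of the FET family, went from 7 peaks and 1644 bp in WT to 4 peaks and 11009 bp in cKO. Its peaks were assigned to a transcript of 2 introns and lay from 45.4 to 83.3% of the gene in WT and from 37.9 to 83.5% in cKO, so they are interior to the longer transcripts of the gene.

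Foxk2, whose start is printed above, had more rather than fewer peaks in cKO. It held 5 first-intron peaks in WT, 1241 bp in all, and 17 in cKO, 8164 bp in all, the most of any gene. Of these 17, 10 lay in a transcript of 8 introns between 3.14 and 21.4 kb from the start, and 7 in the first intron of a 2-intron transcript beyond 30 kb. One WT peak of the gene, at 2.64 kb (216 bp, -log10 q 12.9), had no cKO partner and lay closer to the start than any cKO first-intron peak. Ino80d, a subunit of the INO80 remodelling complex, went from 2 peaks and 348 bp to 16 peaks and 8422 bp. Of the 16, 9 were assigned to a 3-intron transcript and lay beyond the RefSeq span of the gene, which ends at position 63114267 of chromosome 1.

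**Figure D5:**
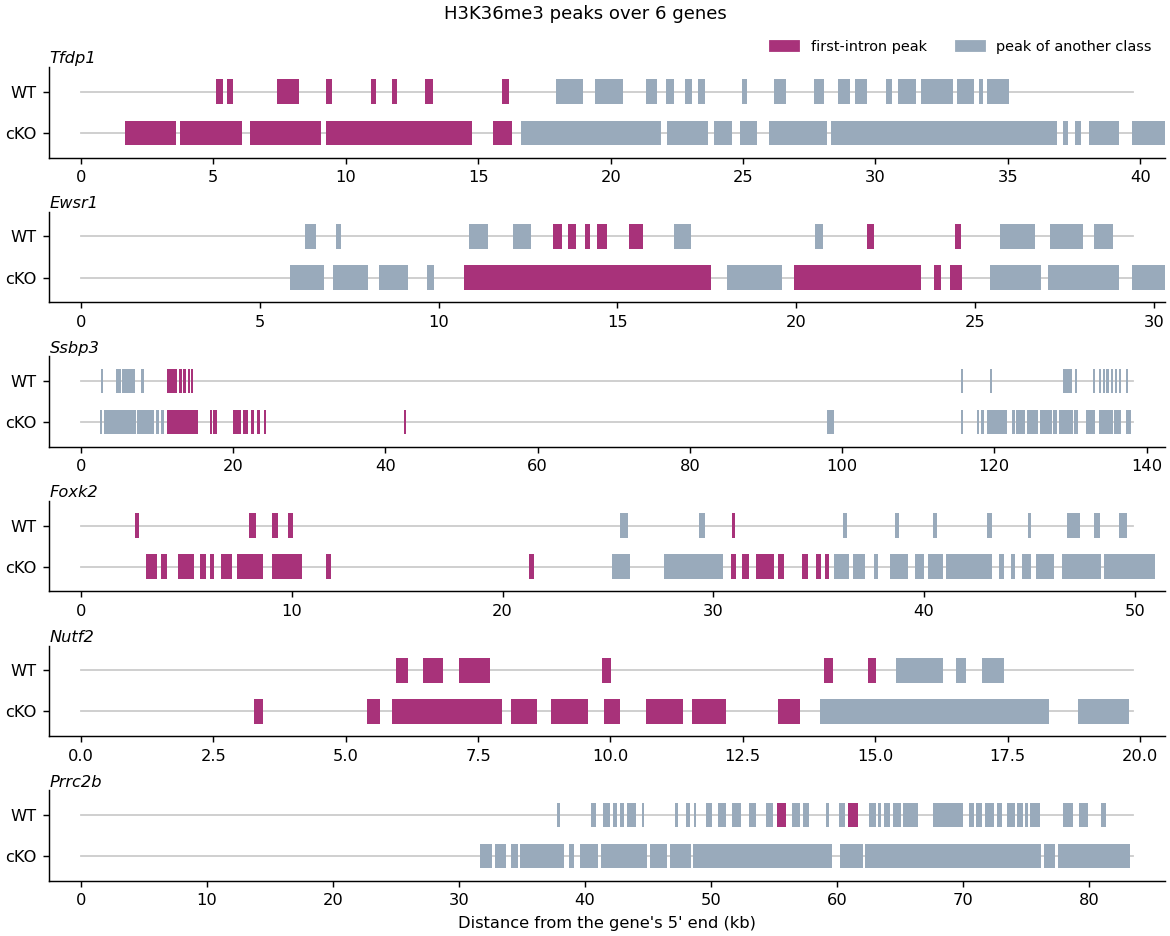
Peaks over Tfdp1, Ewsr1, Ssbp3, Foxk2, Nutf2 and Prrc2b in WT and cKO against distance from the 5′ end of the gene (x axis, kb, own scale per gene); boxes are peaks to scale, except that the shortest are drawn with a minimum width, coloured where they lie in a first intron. The 8 WT peaks of Tfdp1 sit under 5 wider cKO peaks, Foxk2 goes from 5 to 17, and the 2 first-intron peaks of Prrc2b sit under cKO peaks of another class.

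At Ssbp3 both libraries marked the stretch around and just after the downstream start. Internal-intron peaks lay upstream of it too, from 2.64 to 8.29 kb from the 5′ end in WT and 2.52 to 10.8 kb in cKO. The WT library had 5 first-intron peaks, 2526 bp in all, from 0.02 to 2.84 kb from the downstream start. The cKO library had 1 of 4104 bp over the same stretch and 8 smaller ones further on, 7422 bp in all. The widest WT first-intron peak here measured 1296 bp. Syt11, a synaptotagmin gene, had 7 peaks (2812 bp) in WT and 8 (6304 bp) in cKO, all in the first intron of a 2-intron transcript. Nutf2, the import factor for Ran, had 6 peaks (1706 bp) in WT and 9 (5805 bp) in cKO. Gpc1, a glypican, went from 3 peaks and 2343 bp to 7 and 5695 bp, and the kinase gene Sbk1 from 7 peaks and 2358 bp to 9 and 7347 bp. In each of these 5 genes the summed width was larger in cKO while the WT positions were kept in large part: the WT sequence under cKO peaks was 2526 of 2526 bp in Ssbp3, 2738 of 2812 bp in Syt11, 1668 of 1706 bp in Nutf2, 2343 of 2343 bp in Gpc1 and 2135 of 2358 bp in Sbk1.

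Some of the largest sums need care. Fam83e had no first-intron peak in WT and 1 of 8104 bp in cKO (chr7:45719197-45727300), which began upstream of the RefSeq gene and covered the start of the neighbouring Spaca4 as well. The gene had 5 peaks of other classes in WT, and 88.0% of its span lay under cKO peaks against 12.1% under WT peaks. Erdr1 had 5 peaks and 2856 bp in WT and 1 peak of 5924 bp in cKO, placed on the Y chromosome, whereas RefSeq places the gene on the X. Copies of this gene cannot be told apart by these lists, and the local background at the cKO peak was 24.4 tags, against a median of 3.65 tags at cKO first-intron peaks. Predicted genes gave 2 of the 5 cKO peaks with the largest -log10 q, with local backgrounds of 16.7 and 17.7 tags.

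Among the other genes with much more sequence in cKO, Gtf2i, a general transcription factor gene, went from 662 to 7477 bp and the deubiquitinase gene Usp10 from 0 to 6633 bp. Naa35, an auxiliary subunit of the NatC acetyltransferase, went from 1095 to 7539 bp, and Gon4l from 1534 to 7447 bp. Ttyh3, of the tweety channel family, went from 798 to 6920 bp. Nde1, a dynein regulator needed for the divisions of cortical progenitors, went from 295 to 6218 bp. All 6 already had peaks of other classes in WT, from 11 peaks of any class over Usp10 to 53 over Gtf2i. Of the 6633 bp of Usp10, 2474 bp lay under WT peaks of another class.

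Genes with less first-intron sequence in cKO were of 2 kinds among the 5 with the largest difference. Map6, which encodes a microtubule-stabilising protein, held the widest WT first-intron peak (chr7:99296822-99300077, 3256 bp, fold enrichment 9.44, -log10 q 20.9). It was the only WT peak over the gene, and none of it lay under a cKO peak, although the cKO library had 2 peaks elsewhere over Map6. Hs2st1, a heparan sulfate sulfotransferase gene, had 1 WT first-intron peak of 1157 bp with no cKO peak over it. Over the whole gene it had 3 peaks in WT and 8 in cKO, covering 1.09% and 2.94% of its span. Cldn14, a claudin gene, had 3 WT peaks of 198 to 417 bp, 1024 bp in all, and no cKO peak anywhere in the gene. In contrast, the 1555 bp of Prrc2b and the 1117 bp of Gse1 lay wholly under cKO peaks that the annotation put in another class. For Prrc2b the share of the gene under peaks of any class was 25.2% in WT and 57.2% in cKO, so less first-intron sequence stood beside more sequence under peaks in all.

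The peaks with the largest -log10 q in WT were in Cdk17 (chr10:93198281-93198689, -log10 q 32.2), Slc25a36 (29.9), Slc18b1 (27.3) and Lemd3 (21.9), the last an inner nuclear membrane protein gene. All 4 had a cKO partner. In cKO they were in Ubr4, a ubiquitin ligase gene (67.5, 5598 bp), Cpsf6, a 3′ end processing factor gene (55.4, 1257 bp), and Kdm4a, an H3K36 and H3K9 demethylase gene (50.3, 4477 bp), beside the 2 predicted genes. These cKO peaks too were overlapped by WT peaks. Without a WT partner, the largest values in named genes were those of the Hippo kinase gene Lats1 (36.2, 1593 bp), the folding sensor gene Uggt2 (29.6, 459 bp) and the splicing regulator gene Srek1 (28.3, 478 bp). Without a cKO partner, Map6 was followed by Arhgap17 (13.8), Foxk2 (12.9), Rps6kc1 (12.8) and Asmt (12.4), and the last 2 stood on local backgrounds of 9.97 and 13.3 tags against a WT median of 2.60.

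Genes were also grouped by role. The share to set beside each list is that of all genes with an intron peak in cKO, of which 22.2% had one in the first intron; the lists are small and were not tested. Of 26 genes listed as writers, erasers and readers of H3K36 methylation, 3 had a first-intron peak in WT and 9 in cKO. That was 37.5% of the list's genes with an intron peak in cKO. Setd2, the enzyme that writes the mark, had none in WT and 2 in cKO (849 bp). Setd3, whose part in writing the mark was not examined here, went from 215 to 3812 bp. Kdm4a went from 0 to 4477 bp and Kdm4b from 0 to 2258 bp, while Ash1l, another methyltransferase, held 258 and 266 bp. The 4477 bp of Kdm4a were 1 cKO peak that a WT peak overlapped. A value of 0 bp thus means no first-intron peak, and peaks of other classes can lie over the same sequence. Of 22 genes of H2A.Z exchange complexes, 3 in WT and 5 in cKO had one, and the cKO share of 23.8% was near that of all genes. Ep400, the ATPase of the TIP60 complex, went from 990 to 3572 bp and Ino80 from 0 to 1130 bp. Of 30 remodeller and Polycomb genes, 5 and 10 had one (34.5% of those with an intron peak in cKO), among them Chd8 (0 and 3141 bp), Arid1a (189 and 2501 bp), Ncor1 (399 and 2259 bp) and Chd2 (2070 and 3924 bp).

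Of 32 splicing factor genes, 4 had a first-intron peak in WT and 10 in cKO, which was 38.5% of those with an intron peak in cKO. Hnrnpc, which binds nascent transcripts, had none in WT and 12 in cKO (4590 bp), and U2af2, whose protein binds the polypyrimidine tract of introns, went from 0 to 2690 bp. Srrm2 held 297 and 316 bp. Of 25 elongation and polymerase genes, 1 and 5 had one, and the cKO share of 25% was near that of all genes. Among them were Nelfa, of the pausing factor NELF, at 0 and 1428 bp and Aff4, of the super elongation complex, at 629 and 742 bp. Most listed genes had none in either library, and the median over every list was 0 bp in both libraries.

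Signalling genes had the largest share of the 12 lists in cKO. Of 25 Notch, Wnt and Hedgehog genes, 2 had a first-intron peak in WT (Mib1 and Smo) and 11 in cKO, 47.8% of those with an intron peak. Sufu, the inhibitor of Hedgehog signalling, went from 0 to 2675 bp, the Wnt co-receptor gene Lrp5 from 0 to 1877 bp, and Axin1 and Apc, scaffolds of the destruction complex, from 0 to 1658 and 1329 bp. All 4 had WT peaks of other classes over the gene, from 3 over Sufu to 11 over Apc.

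The neural lists stood above the share over all genes and the cell cycle list below it, with few genes in each and no test. Of 32 forebrain progenitor regulators, 2 had one in WT and 6 in cKO, which was 26.1% of those with an intron peak in cKO against 22.2% of all such genes. Emx1, a cortical homeobox gene, had 3 peaks in each library, 769 bp in WT and 1881 bp in cKO, and Hmga2 had 1 in each, of 189 and 185 bp. Of 20 radial glia structure and adhesion genes, 1 and 5 had one (33.3%), with the protocadherin gene Dchs1 at 1362 bp (6 peaks) and 5004 bp (7 peaks). Of 26 cell cycle genes, 1 and 3 had one (14.3%), with the condensin gene Smc4 at 0 and 2611 bp and E2f3 at 198 and 1803 bp. Of 30 cortical neuron genes, 5 and 6 had one (40%), among them Cux1 (241 and 2598 bp) and Auts2 (405 and 2173 bp). Genes with one in WT also had one in cKO, here as in every other list with such a gene. Tubb3, a neuronal tubulin, had 1 peak in each (194 and 462 bp).

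Of 30 ubiquitously transcribed genes, which nearly all carried a peak somewhere (29 in WT and 30 in cKO), only the glycolytic gene Pkm had a first-intron peak, of 524 bp in WT and 3415 bp in cKO. That was 1 of 15 listed genes with an intron peak in cKO (6.67%). None of 30 non-neural genes had a peak in any intron in either library, so that list says nothing of first introns in particular. In the check of the tissue label by peaks of any class, 10 of 12 forebrain progenitor markers were marked in WT and 11 in cKO, with Fabp7 unmarked in both. Of 12 neuronal markers 5 and 6 were marked, and none of the 23 microglial, endothelial, blood and mesenchymal markers was marked in WT and 2 (Csf1r and Alas2) in cKO. The part of other cell types in the first-intron peaks was not tested.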

How the data were processed

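H3K36me3 ChIP-seq peaks of 1 WT and 1 cKO library were analysed. The authors called peaks with MACS2; the file headers give version 2.1.1.20160309, and the submitters' processing notes give 2.1.0 and also name Bowtie2 2.2.9 and mm10. Each ChIP library (31984670 WT and 32927164 cKO tags) was called as narrow peaks against its input (38500353 and 35026817 tags) at a p cutoff of 1.00e-05, per the file headers. The deposited lists give the pileup signal at the summit, the fold enrichment over local background, and p and q as -log10 values. All come from the authors' MACS run and were used only within a list. A broad mark called as narrow peaks breaks into pieces, and the number of pieces and their width move with signal strength. The deposited annotation gives each peak a class by its centre, and a start there lay 1 bp above the start in the list.

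Each annotation row was joined to its peak, and host genes were named by the transcript that contains the peak. The transcript was paired with a gene in the files for 72.8% of WT and 67.1% of cKO first-intron peaks. For the rest the commonest nearest gene of that transcript's peaks or the 1 protein-coding RefSeq span over the summit was used. Host symbols were found in RefSeq GRCm38.p6 for 98.9% and 98.8%. The annotation holds no distance to a start, so distances were taken from RefSeq starts, in place of the deposited distance first planned. A partner overlapped by at least 1 bp. Local background was (pileup + 1) divided by the fold, less 1. Medians carry order-statistic intervals. Python 3.11.15, pandas 2.3.3, numpy 2.4.6, scipy 1.17.1 and matplotlib 3.10.9 were used, and the overlap code was tested on simulated intervals.

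The peaks, the 12 gene lists (335 entries) and the rules were chosen with earlier results of these data known. Names were drawn, per library, from the 5 peaks with the largest -log10 q, the 5 widest and the 5 strongest without a partner. Of the genes, names came from the 10 with the most first-intron sequence per library, the 10 largest gains, the 5 largest losses and up to 4 per list with the largest difference. Not described above were Snx24, with a WT peak of 1243 bp, and Pcdhga9, with 2866 bp in WT and 4209 bp in cKO. Of the 8 WT peaks of Pcdhga9, 7 lay beyond its RefSeq span. Predicted genes were counted, not named, and the printed starts and a few list members were picked with their values in view. The alternatives kept peaks with a -log10 q of 5 or more or a fold of 4 or more, cut the cKO list to the WT peak number or length, or used transcripts of 10 or more introns, no peaks within 2 kb of a start, no predicted genes, a reciprocal overlap of 50%, joining within 3 kb, and differences of 500 bp or 2 kb.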

Additional observations from a re-analysis of the deposited data

How the results depend on the processing

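No paired analysis was possible because each genotype had 1 ChIP library and the labels carry no replicate numbers. For the same reason no setting leaves out a library. Of 96 planned comparisons of a value with its alternative, 45 stayed within the 95% interval of the value as reported or within 1.5 times of a count, and 51 did not. The 2 reduced cKO lists of the 5′ edge were added after seeing the data.

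With a -log10 q of at least 5, the share of all peaks was 1.89% in WT and 3.32% in cKO, the share of intron peaks in cKO 5.37%, the median width 252 bp and 359 bp, and the cKO partner share 13.03%. With a fold of at least 4, the cKO shares were 3.08% and 5.02%, the cKO median width 374 bp and the WT partner share 76.6%. With first-intron peaks near predicted genes left out but all peaks kept in the totals, the shares of all peaks were 1.86% and 3.13%. Those of intron peaks were 3.74% and 5.04%.

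With the cKO list at the WT number of peaks, the cKO values were 2.08% and 3.66% for the shares, 580 genes, 659 bp, 9.92 kb, and 195 genes with 1 kb more and 9 with 1 kb less, with partner shares of 57.4% (WT) and 43.7% (cKO). At the WT covered length they were 1.65% and 3.37%, 77 genes, 1910 bp, 11.1 kb, 46 and 24 genes, and 19.6% and 93.1%. The cKO peak was then the closer to the 5′ end in 54.4% and 12.9% of genes, and the second value is a reversal.

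First-intron peaks of transcripts with 10 or more introns made up 0.521% of all peaks in WT and 0.983% in cKO. Of the intron peaks of such transcripts they made up 1.58% and 2.44%. In this setting the genes numbered 146 and 482, the cKO width was 329 bp and distance 7.50 kb, and the partner shares 73.4% and 13.5%. There 115 genes had 1 kb more and 0 had 1 kb less. A difference of 500 bp gave 868 and 22 genes and one of 2 kb gave 200 and 1. A reciprocal overlap of 50% gave 21.3% and 5.03%. Fewer peaks or transcripts entered these settings by construction, and the cause of the other shifts was not tested. Joining within 3 kb left 2046 cKO domains. Leaving out peaks within 2 kb of a start moved no value beyond its interval. At this depth a region without a peak is one where enrichment was not detected.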
